A study of Mus musculus with 8 samples.

Results

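DNA replication and S-phase genes encode the proteins that copy the genome once in each cell cycle. The 46 genes described here were listed by name from 10 roles: origin recognition and licensing, the MCM2-7 helicase, helicase activation, DNA polymerases and primase, the sliding clamp and its loader, single-strand binding, Okazaki fragment joining, deoxynucleotide supply, cyclin E with CDK2, and chromatin assembly. Of these, 44 had a locus of that name among the 80155 loci measured, and Cdt1 and Gins2 were not analysed here. All 44 reached 1 FPKM in at least 1 heart and were tested.

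RNA-seq was made from the hearts of male Hsd:ICR(CD-1) mice on postnatal day 1 (P1, 4 hearts) and postnatal day 7 (P7, 4 hearts), each heart being a separate animal and library, and the labels name no treatment. The atrial appendages had been removed, and total RNA of the remaining whole heart was depleted of ribosomal RNA. The unit is FPKM (fragments per kilobase of transcript and per 1e+06 mapped fragments). Levels of different genes can thus be set side by side on a per-length scale. The study asked which molecules change while the newborn heart loses its capacity to regenerate.

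In a dividing cell, the origin recognition complex (ORC) marks the sites where replication can start, and CDC6 and CDT1 load the MCM2-7 helicase there. CDC45 and the GINS complex switch the helicase on, primase and polymerase alpha begin each new strand, and polymerases delta and epsilon extend it while held by the PCNA clamp. E2F transcription factors switch on many of these genes before S phase. Mouse cardiomyocytes still make DNA in the first days after birth and then largely leave the cell cycle, while other cells of the heart go on dividing. In RNA of a whole heart, fewer S-phase cells and less replication RNA per cell cannot be told apart.

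The promoters of the genes called lower at P7 after scaling the hearts to each other and of Mcm6, chosen after its matches were seen, are shown because replication genes are known as E2F targets. Each stretch is the 150 bases before the RefSeq start on GRCm38.p6, written 5′ to 3′ on the gene's strand. Capitals mark matches, on either strand, to an E2F-type motif (TTTGGCGC, TTTCCCGC, TTTCGCGC, TTTGCCGC, TTTGGCGG or TTCCCGCC) or to the CCAAT box (CCAAT, which reads ATTGG on the other strand). The stretches lie at chr1:58505110-58505259 on the minus strand for Orc2, chr8:85299482-85299631 on the plus strand for Orc6, chrX:93632156-93632305 on the minus strand for Pola1, chr10:128015065-128015214 on the plus strand for Prim1, chr7:102441545-102441694 on the plus strand for Rrm1 and chr1:128359706-128359855 on the minus strand for Mcm6. GENCODE M21 places the start of Prim1 inside the stretch shown.
Orc2: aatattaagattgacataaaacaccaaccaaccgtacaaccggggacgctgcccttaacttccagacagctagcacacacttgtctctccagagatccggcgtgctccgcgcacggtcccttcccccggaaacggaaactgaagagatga
Orc6: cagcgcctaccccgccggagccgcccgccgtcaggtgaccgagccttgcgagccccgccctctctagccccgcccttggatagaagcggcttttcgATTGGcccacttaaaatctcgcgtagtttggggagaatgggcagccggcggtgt
Pola1: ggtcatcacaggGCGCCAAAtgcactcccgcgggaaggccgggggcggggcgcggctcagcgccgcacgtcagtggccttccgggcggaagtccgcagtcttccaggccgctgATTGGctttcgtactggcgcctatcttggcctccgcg
Prim1: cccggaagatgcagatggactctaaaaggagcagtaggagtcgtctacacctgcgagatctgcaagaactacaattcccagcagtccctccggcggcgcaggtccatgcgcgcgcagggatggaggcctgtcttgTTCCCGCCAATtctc
Rrm1: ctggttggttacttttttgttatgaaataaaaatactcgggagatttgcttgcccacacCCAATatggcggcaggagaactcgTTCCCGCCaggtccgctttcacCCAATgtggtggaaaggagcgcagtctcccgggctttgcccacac
Mcm6: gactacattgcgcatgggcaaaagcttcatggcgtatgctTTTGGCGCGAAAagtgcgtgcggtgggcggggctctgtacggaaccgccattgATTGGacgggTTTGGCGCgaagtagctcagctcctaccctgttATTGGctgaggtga

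Pola1, Prim1 and Rrm1 each held 1 E2F-type match in these stretches, and Mcm6 held 3, the most upstream of its start among the members searched, with the first 2 overlapping. In Prim1 the E2F-type match, 15 to 8 bases before the start, shares its last bases with a CCAAT box. Orc6 held a CCAAT box alone, and the stretch of Orc2 held neither. In windows from 250 bases before to 50 after the start, an E2F-type motif was found in 18 of the 36 members with a RefSeq window (50%), against 4.451% of 27025 mouse windows. Some of the E2F-type letter strings overlap each other, and a window was counted once. CCAAT was found in 23 of the 36 (63.89%, against 38.02% of all windows). The cell cycle homology region (CHR, TTTGAA or TTCGAA) was found in 6 (16.67%, against 19.49%). A match is a string of letters and not a measured binding site.

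Taken as deposited, the replication genes did not separate the stages. Their summed FPKM was 567, 458, 433 and 598 in P1 replicates 1 to 4 and 371, 396, 681 and 569 in P7 replicates 1 to 4. The means were 514 ± 80.8 at P1 and 504 ± 147 at P7 (SD, n = 4 each), a ratio of 0.981. The highest and the lowest of the 8 hearts were both P7 hearts. The mean log2(FPKM + 1) over the members was 3.22 ± 0.23 at P1 and 3.12 ± 0.38 at P7 (SD, n = 4 each).

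Single hearts were high or low for most members at the same time. Within P7, replicate 3 held the highest as-deposited value for 38 of the 44 members and replicate 1 the lowest for 29. Within P1, replicate 4 was highest for 33 and replicate 3 lowest for 26. The hearts were also brought to a common scale by median-ratio scaling. In it each heart is divided by the median ratio of its annotated loci to the loci's geometric means. The divisors were 0.950, 0.839, 0.779 and 1.156 in P1 and 1.169, 0.929, 1.300 and 1.057 in P7. The scaling lowered the median log2 fold change of all tested annotated loci from 0.19 to -0.01. Over all tested loci, annotated or not, that median was -0.08 as deposited and -0.27 after scaling. After scaling the summed FPKM was 597, 546, 556 and 517 in the P1 hearts, a mean of 554 ± 33.2. In the P7 hearts it was 318, 426, 524 and 538, a mean of 452 ± 102 and a ratio of 0.815. P7 replicates 3 and 4 lay within the P1 range, and replicates 1 and 2 lay below it.

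**Figure D1:**
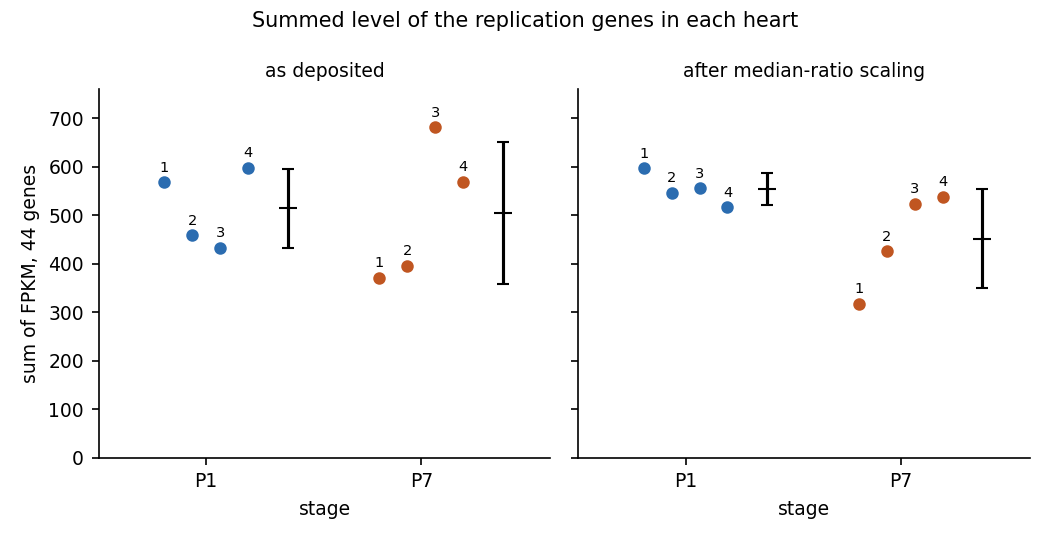
Summed FPKM of the 44 measured replication genes (vertical axis) in each heart, as deposited on the left and after median-ratio scaling on the right; numbers beside the points are replicates, and the black bars give the mean ± SD of 4 hearts. The stages overlap in both panels, and after scaling P7 replicate 1, at 318, is the lowest heart.

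Gene by gene, 0 of the 44 members passed the test in either direction on the deposited values. The test was limma on log2(FPKM + 1) over all 43172 tested loci with Benjamini-Hochberg adjustment, and a gene was called where the adjusted p was below 0.05 and the stage means differed at least 1.5-fold. Among 17960 tested annotated loci, 0.401% were called lower and 7.74% higher at P7. The smallest adjusted p among the members was 0.158 (Prim1). An unadjusted limma p under 0.05 was found for 5 members, 4 with a lower and 1 with a higher P7 mean. The share of annotated loci under that unadjusted cut-off was not counted. The log2 fold change was negative for 29 of 44 members (65.9%), against 32.4% of the annotated loci. Its median was -0.10 over the members, 0.19 over annotated loci and -0.08 over all tested loci, annotated or not. The members' median was 0.01 without P7 replicate 1 and -0.27 without P7 replicate 3. For 3 members every P7 heart lay below every P1 heart (2.69% of annotated loci did), and for 0 every P7 heart lay above (17.3% of annotated loci). Leaving out P7 replicate 3 raised the first count to 7, and leaving out P1 replicate 1, P1 replicate 4 or P7 replicate 1 raised the second to 2. The matching shares of annotated loci were not counted.

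After median-ratio scaling, 5 members were called lower at P7 and 0 higher, where 3.85% and 7.42% of 17930 annotated loci were. They were the ORC subunits Orc2 and Orc6, the catalytic subunit of polymerase alpha (Pola1), the catalytic subunit of primase (Prim1) and the large subunit of ribonucleotide reductase (Rrm1). Their log2 fold changes lay between -0.88 and -0.66. The fold change was negative for 36 of 44 members (81.8%, against 51.3% of annotated loci), with a median of -0.34. The median was -0.01 over annotated loci and -0.27 over all tested loci, annotated or not. Every P7 heart lay below every P1 heart for 11 members (13.6% of annotated loci), and above for 0 (14.9%). The 11 were the 5 called genes and Mcm4, Mcm7, Cdc45, Rfc4, Tyms and Ccne2. The unadjusted limma p was under 0.05 for 17 members, all with lower P7 means. How many annotated loci passed this cut-off was not counted, so the 17 has no background share beside it. For 7 members (Orc1, Mcm2, Gins4, Rfc1, Tk1, Ccne1 and Chaf1b) the fold change was positive as deposited and negative after scaling. The count of 5 was 3 without P1 replicate 2 or without P7 replicate 2, and the count of 11 was 17 without P7 replicate 4. Shares of annotated loci with a heart left out were not counted.

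**Figure D2:**
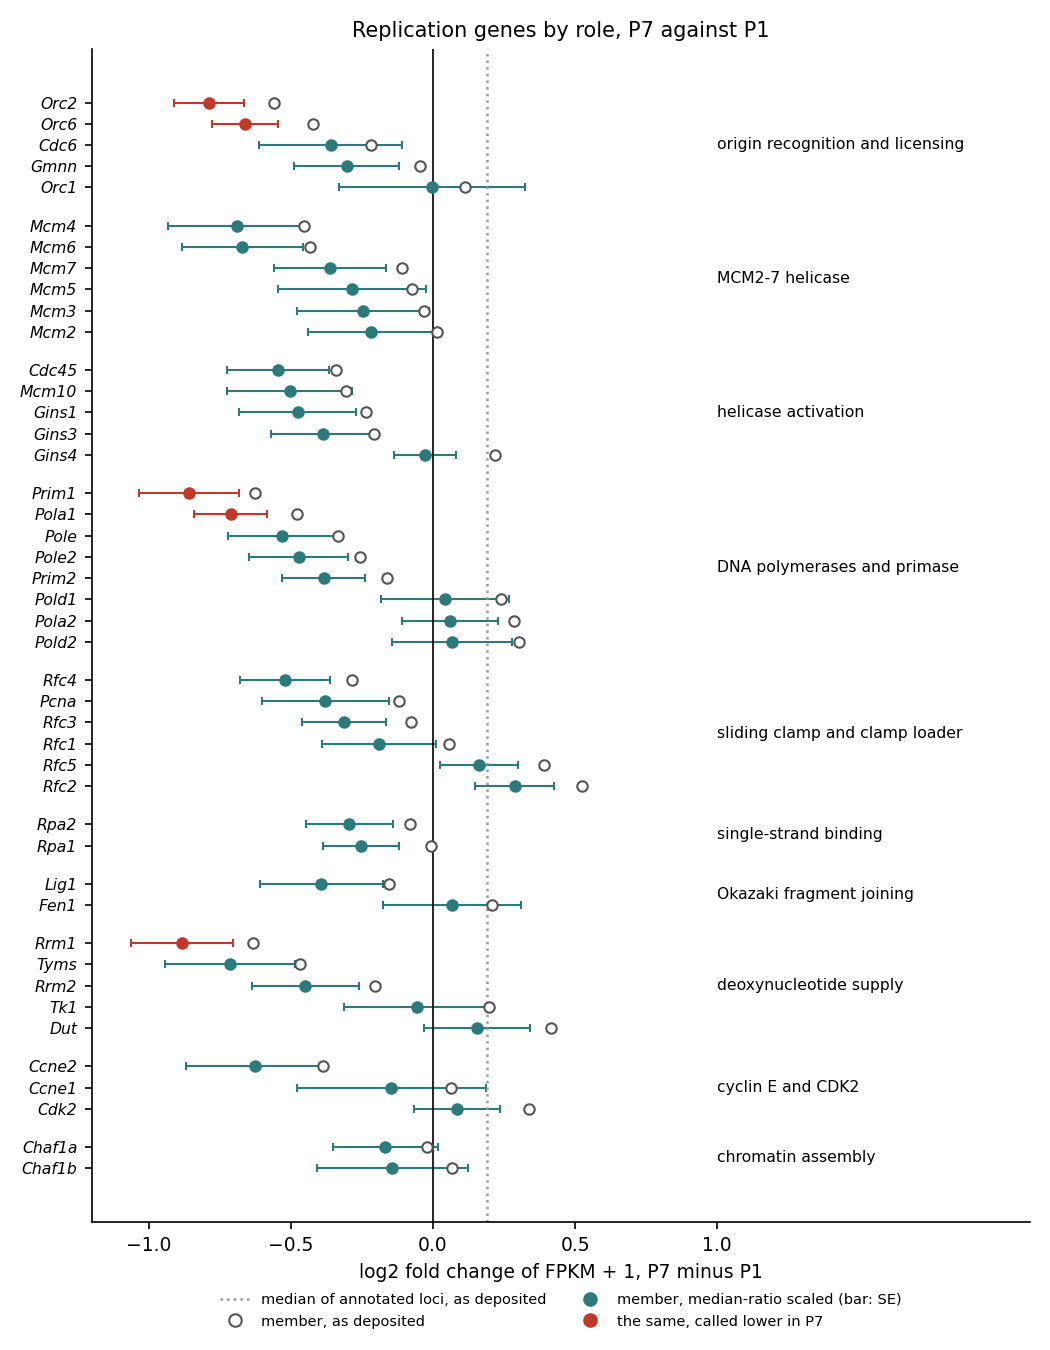
Log2 fold change of each replication gene (rows, grouped by role), P7 minus P1, as deposited (open circles) and after median-ratio scaling (filled circles, bars give the SE); the dotted line is the median of all tested annotated loci as deposited, 0.19. Red marks the 5 genes called lower after scaling, and no gene was called higher.

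Origin recognition and licensing held 2 of the 5 calls, both subunits of ORC. Orc2 (chromosome 1, 58462771 to 58505109, minus strand, GRCm38) measured 8.17, 6.97, 6.81 and 11.9 FPKM in P1 replicates 1 to 4 and 4.95, 4.17, 6.34 and 5.88 FPKM in P7 replicates 1 to 4. The P7 hearts lay below all P1 hearts already as deposited, although limma gave a log2 fold change of -0.56 ± 0.21 (SE) and an adjusted p of 0.178. After scaling the values were 8.61, 8.31, 8.75 and 10.3 at P1 and 4.23, 4.49, 4.87 and 5.56 at P7, with a log2 fold change of -0.79 ± 0.12 and a limma adjusted p of 0.0083.

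Orc6 (chromosome 8, 85299632 to 85308278, plus strand) encodes the smallest ORC subunit. It measured 11.7, 10.4, 10.4 and 14.9 FPKM at P1 and 7.62, 6.90, 10.6 and 9.29 FPKM at P7, overlapping through P7 replicate 3. After scaling the P1 hearts lay at 12.3 to 13.4 and the P7 hearts at 6.51 to 8.79, without overlap (log2 fold change -0.66 ± 0.12, limma adjusted p = 0.0122). The other licensing genes were not called on either scale. Gmnn, which encodes geminin, the inhibitor of CDT1, had the highest level of the group, 30.8 ± 7.46 FPKM at P1 and 31.1 ± 12.5 at P7. Cdc6, which encodes the MCM loader, measured 1.77 ± 0.50 and 1.47 ± 0.88 FPKM. Orc1, the largest ORC subunit, was listed between 0.200 and 2.33 FPKM over the 8 hearts, and its log2 fold change was 0.11 as deposited and -0.0033 after scaling. The symbol Orc1 stood at 4 loci, of which the highest was used.

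The 6 subunits of the MCM2-7 helicase, the ring that unwinds the duplex, were not called on either scale. As deposited, the fold changes ran from -0.45 (Mcm4) to 0.01 (Mcm2). After scaling all 6 were negative, with a median of -0.32. Mcm4 measured 10.3, 10.6, 9.14 and 13.3 FPKM at P1 and 4.26, 5.53, 12.9 and 10.3 at P7. P7 replicates 1 and 2 were thus below all P1 hearts, and replicates 3 and 4 fell inside the P1 range. After scaling Mcm4 did not overlap between stages (10.8 to 12.6 against 3.64 to 9.89), but its limma adjusted p was 0.141. Mcm7, whose locus also carries the microRNA genes Mir25 and Mir93, was the most abundant subunit, at 25.7 ± 3.32 FPKM at P1 and 24.6 ± 7.82 at P7. Mcm6 had a scaled log2 fold change of -0.67 and an adjusted p of 0.103.

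None of the 5 measured helicase activators was called. Cdc45, which joins GINS and MCM2-7 in the active helicase, measured 3.84 ± 0.48 FPKM at P1 and 2.95 ± 1.22 at P7, and after scaling its P7 hearts (1.79 to 3.44) lay below its P1 hearts (3.55 to 4.62) with a limma adjusted p of 0.112. Gins1 and Gins3, subunits of the GINS complex, and Mcm10, a scaffold of the activated helicase, had scaled log2 fold changes of -0.48, -0.39 and -0.50. Gins4, in a locus joined with Agpat6, was the highest of the group, at 14.1 ± 3.21 and 16.5 ± 3.30 FPKM. Its scaled log2 fold change was -0.03, and reads of the 2 genes cannot be told apart there.

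Polymerase alpha and primase, which lay down the primer of each new strand, held 2 of the 5 calls. Prim1 (chromosome 10, 128015168 to 128030037, plus strand) measured 9.57, 8.93, 9.07 and 11.5 FPKM at P1 and 4.57, 4.21, 7.72 and 8.25 FPKM at P7. All P7 hearts lay below all P1 hearts as deposited, with replicates 1 and 2 the farthest away. The log2 fold change was -0.63 ± 0.22 as deposited (limma adjusted p = 0.158) and -0.86 ± 0.18 after scaling (limma adjusted p = 0.0212).

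Pola1 (chromosome X, 93304767 to 93632155, minus strand) measured 10.04, 8.66, 8.72 and 10.3 FPKM at P1 and 5.93, 4.93, 8.15 and 7.30 FPKM at P7. Here too the stages did not overlap on either scale. The scaled log2 fold change was -0.71 ± 0.13 (limma adjusted p = 0.0138). Their partner subunits were not called. Prim2, the large primase subunit, had a scaled log2 fold change of -0.38 (adjusted p = 0.165), and Pola2, the accessory subunit of polymerase alpha, one of 0.06 (adjusted p = 0.803). Whether partners differ from each other was not tested.

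The other polymerase members were not called either. Pole and Pole2, subunits of the leading-strand polymerase epsilon, had scaled log2 fold changes of -0.53 and -0.47 (limma adjusted p = 0.142 and 0.153). Pold1 and Pold2, subunits of the lagging-strand polymerase delta, had 0.04 ± 0.23 and 0.07 ± 0.21 (SE). Over the 8 hearts together Pold2 had the highest mean of the polymerase and primase genes, with 7.15 ± 1.42 FPKM at P1, below Prim1 and Pola1, and 9.08 ± 1.89 at P7. The difference between the polymerases was not tested.

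**Figure D3:**
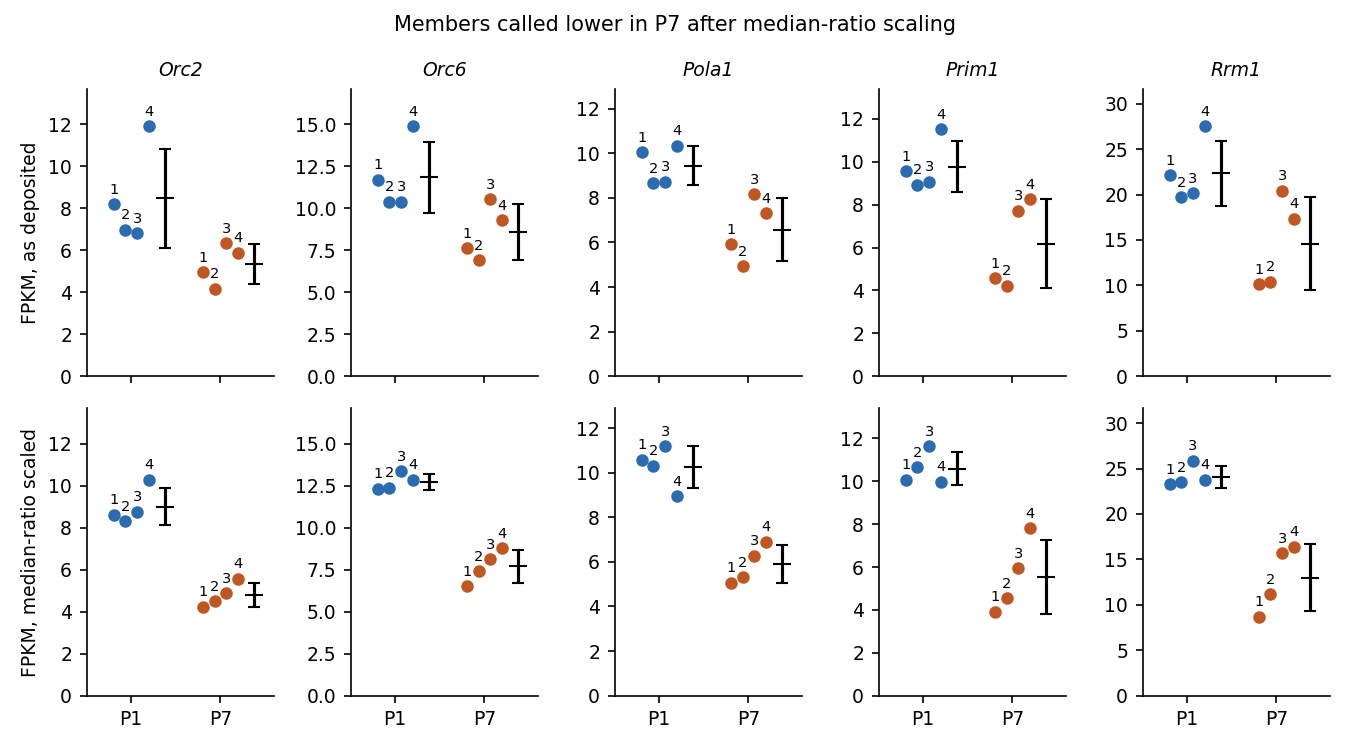
FPKM of the 5 replication genes called lower at P7 after scaling, as deposited (top) and median-ratio scaled (bottom), for 4 P1 hearts (blue) and 4 P7 hearts (orange) numbered by replicate; black bars give the mean ± SD. Orc2, Pola1 and Prim1 do not overlap on either scale, and Orc6 and Rrm1 overlap as deposited through P7 replicate 3.

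The sliding clamp gene Pcna was the most abundant member, carrying 12.2% of the summed FPKM of the 44 genes. It measured 74.6, 55.1, 55.9 and 67.4 FPKM at P1 and 38.6, 43.4, 88.3 and 74.7 FPKM at P7. P7 replicates 1 and 2 were below all P1 hearts and replicates 3 and 4 above them, replicate 4 by only a small margin, so the means, 63.2 ± 9.43 and 61.2 ± 24.1, were close while the P7 spread was wide. After scaling the log2 fold change was -0.38 ± 0.22 (limma adjusted p = 0.324). The genes of the clamp loader, replication factor C, went from 0.52 (Rfc2) to -0.29 (Rfc4) as deposited. Rfc2 measured 8.14 ± 2.44 FPKM at P1 and 12.0 ± 2.91 at P7, the only member with a higher P7 mean at an unadjusted limma p under 0.05, and its adjusted p was 0.254. Rfc4 did not overlap after scaling (9.46 to 11.1 against 4.75 to 8.40) and had an adjusted p of 0.0915.

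Rpa1 and Rpa2, subunits of the single-strand binding complex RPA, had scaled log2 fold changes of -0.25 and -0.29, with limma adjusted p of 0.291 and 0.288. Rpa1 measured 16.9 ± 4.94 FPKM at P1 and 16.7 ± 3.88 at P7. Of the genes that finish Okazaki fragments, Lig1 (DNA ligase 1) measured 8.83 ± 2.01 and 7.97 ± 2.56 FPKM. Fen1, the flap endonuclease, measured 1.06 ± 0.42 and 1.43 ± 0.84 FPKM and rested on about 45.1 fragments per heart, the fewest of all members.

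The 5 genes of deoxynucleotide supply held the most negative fold change of the members. Rrm1 (chromosome 7, 102441695 to 102469771, plus strand) measured 22.1, 19.7, 20.1 and 27.5 FPKM at P1 and 10.1, 10.4, 20.4 and 17.3 FPKM at P7. P7 replicates 1 and 2 were at about the same low level, and replicate 3 overlapped the P1 hearts. After scaling the P1 hearts lay at 23.3 to 25.9 and the P7 hearts at 8.67 to 16.4, with a log2 fold change of -0.88 ± 0.18 and a limma adjusted p of 0.0204. Tyms, thymidylate synthase, followed with -0.71 and no overlap, but an adjusted p of 0.105. Rrm2, the small reductase subunit, had -0.45 (adjusted p = 0.208).

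The other 2 supply genes were not called and had smaller scaled fold changes. Tk1, thymidine kinase 1 of the salvage pathway, measured 20.6 ± 3.90 FPKM at P1 and 24.7 ± 8.68 at P7, and its scaled log2 fold change was -0.06 ± 0.26. Dut, the dUTPase that keeps uracil out of DNA, was the second most abundant member, at 41.6 ± 7.81 and 56.4 ± 13.8 FPKM, with a log2 fold change of 0.41 as deposited (limma adjusted p = 0.329) and 0.15 after scaling. Both symbols stood at 2 loci, of which the higher was used.

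Ccne2, which encodes a cyclin E, measured 14.8, 12.7, 11.4 and 15.6 FPKM at P1 and 5.34, 11.8, 14.6 and 11.1 at P7. P7 replicate 1 stood far below the other P7 hearts, and the scaled log2 fold change of -0.63 had an adjusted p of 0.179. The related Ccne1 measured 1.68 FPKM in P7 replicate 1 and 4.53, 9.09 and 7.59 in the others, against 3.30 to 6.45 at P1. Their kinase Cdk2 measured 19.7 ± 2.57 and 25.1 ± 2.97 FPKM and had a scaled log2 fold change of 0.08. Chaf1a and Chaf1b, which encode the large subunits of the histone chaperone CAF-1, had scaled log2 fold changes of -0.17 and -0.14 and were not called.

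The split within P7 was seen across the roles. After scaling, P7 replicate 1 was the lowest P7 heart for 40 of 44 members and the lowest of all 8 hearts for 33. Replicate 4 was the highest P7 heart for 26 and replicate 3 for 16. Without P7 replicate 1 the scaled median log2 fold change was -0.17 and the ratio of summed FPKM 0.896, and the count of called members was again 5. The mitotic genes of a reference list moved with it, at a scaled sum of 165, 175, 290 and 294 FPKM in P7 replicates 1 to 4, against 239 to 274 at P1. P7 replicates 1 and 2 were thus low for both groups of genes. The part of this spread in the stage comparison was not tested.

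**Figure D4:**
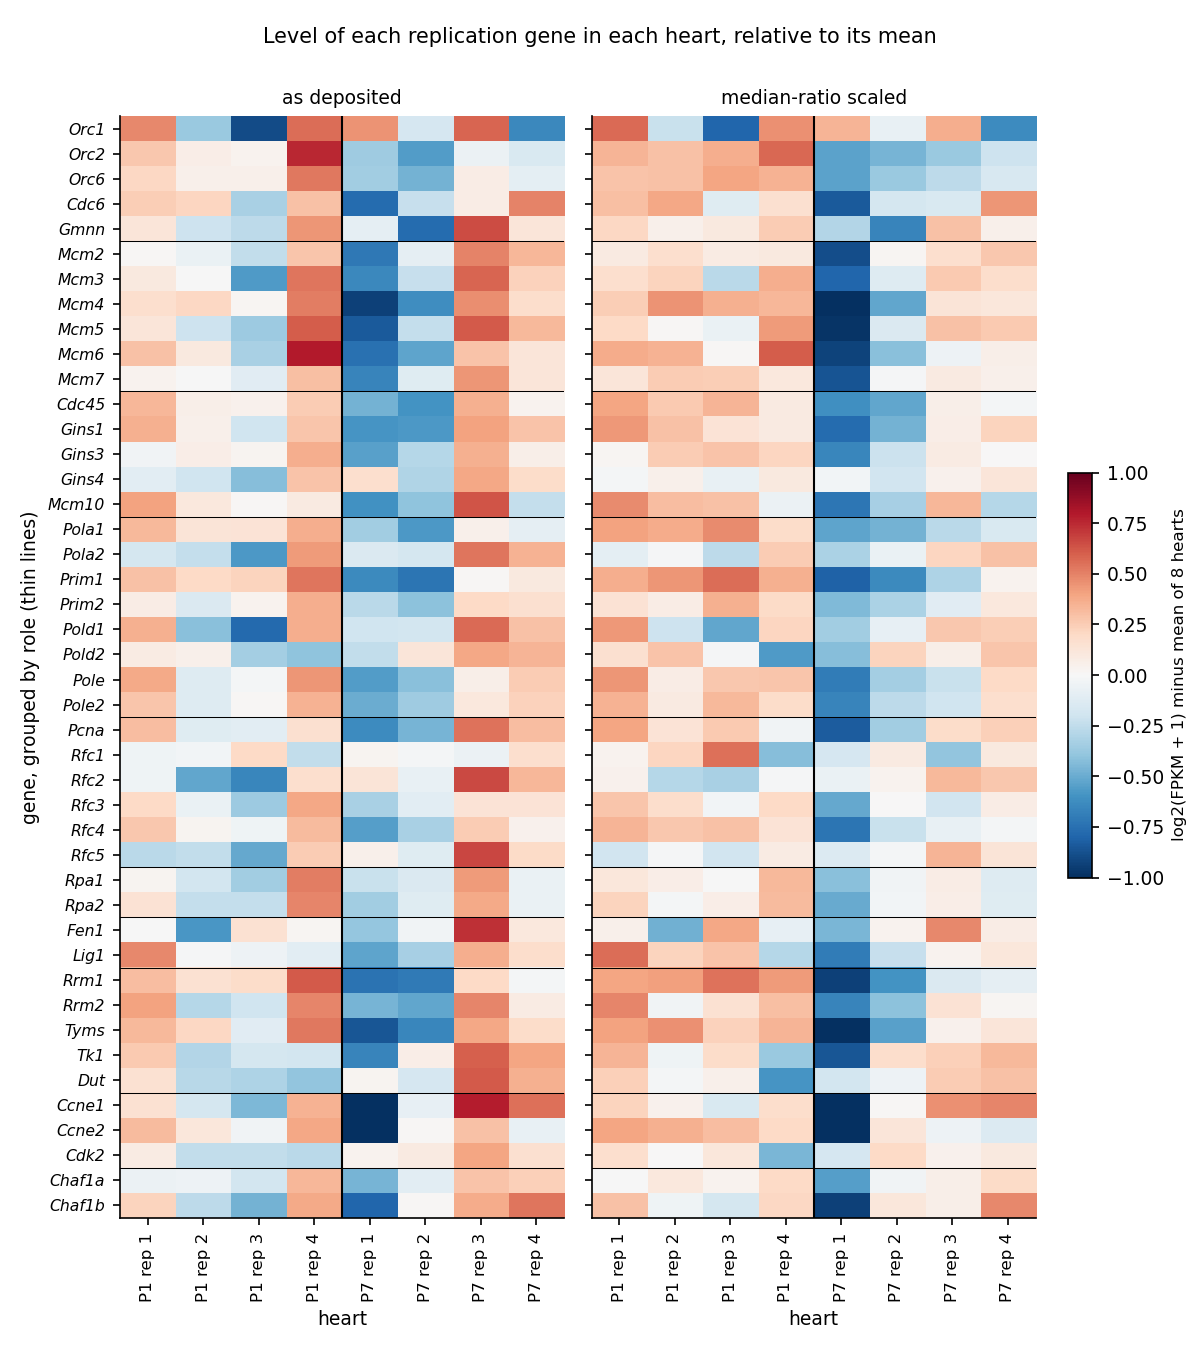
Level of each of the 44 replication genes (rows, grouped by role between thin lines) in each heart (columns), as log2(FPKM + 1) minus the gene's mean over 8 hearts, as deposited (left) and median-ratio scaled (right); the color scale ends at -1 and 1. P7 replicate 1 is the lowest P7 heart for 29 of 44 genes as deposited and 40 of 44 after scaling.

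The fold changes were also related to the base composition of the transcripts. The GC content of the longest transcript ran from 36.3% to 61.0% over the members, with a median of 48.8%. Its Spearman correlation with the scaled log2 fold change was 0.62 over the 44 members and 0.54 over 15381 annotated loci, given as descriptions across genes of the same 8 libraries. The 22 members of lower GC content had a median of -0.49 and the 22 of higher GC content one of -0.19. The 5 called genes lay between 41.5% and 45.4%. The trend of each heart against GC content was then removed with the scaling in place. Loci without a known GC content, among them every unannotated locus, were left uncorrected and stayed in the test and its adjustment. Of the 5 called genes, Orc2 alone kept an adjusted p under the cut-off (log2 fold change -0.57, limma adjusted p = 0.0431). The fold cut-off was applied to the scaled means before this correction. Whether Orc2 meets it on corrected values was not tested. The log2 fold changes of the others were then -0.48 (Orc6), -0.43 (Pola1), -0.63 (Prim1) and -0.64 (Rrm1), with limma adjusted p of 0.0578, 0.106, 0.0919 and 0.102. These compare with -0.66, -0.71, -0.86 and -0.88 before the correction. The median of the members was -0.30.

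**Figure D5:**
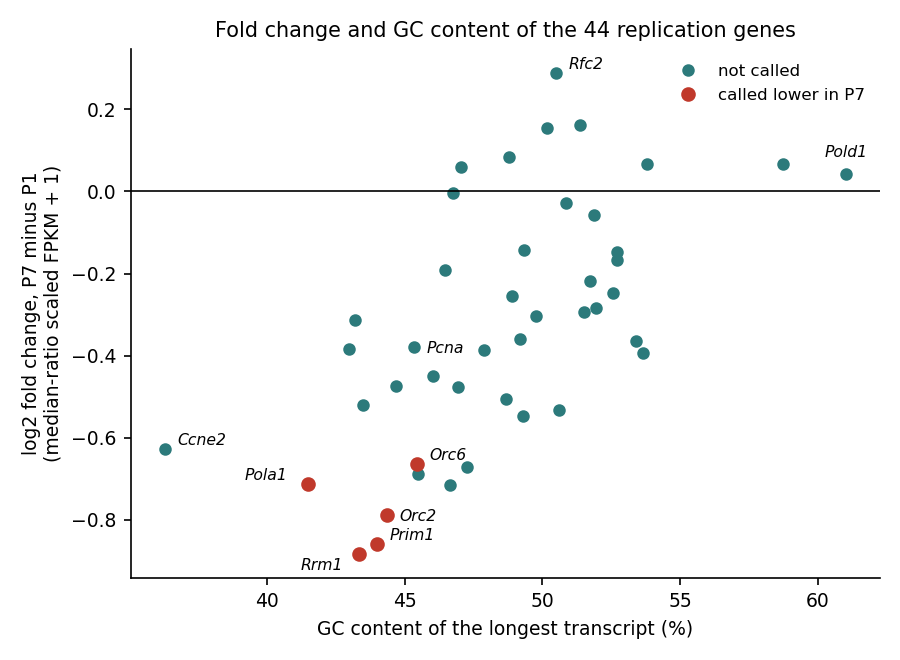
Scaled log2 fold change, P7 minus P1 (vertical axis), plotted by GC content of each gene's longest transcript in percent (horizontal axis) for the 44 replication genes; red marks the 5 genes called lower at P7. The called genes lie between 41.5% and 45.4% GC.

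The members with and without an E2F-type motif had scaled medians of -0.34 (15 of 18 negative) and -0.26 (14 of 18 negative). Of the 5 called genes, Pola1, Prim1 and Rrm1 held such a motif in the window searched. Orc2 and Orc6 did not.

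Other replication factors formed a list of 34 tested genes. Of these, 2 were called higher and 0 lower as deposited, and 2 higher and 5 lower after scaling, with medians of -0.02 and -0.27. Over all annotated loci 7.74% were called higher and 0.401% lower as deposited, and 7.42% and 3.85% after scaling. The lower genes included Cdc7, the kinase that fires licensed origins, which measured 3.04, 3.03, 2.67 and 2.80 FPKM at P1 and 1.00, 1.06, 2.28 and 1.52 at P7 (scaled log2 fold change -0.87, limma adjusted p = 0.0187). They also included Topbp1, a partner of the replication checkpoint, at -0.86, and Top2a, a topoisomerase whose locus is joined with SNORA32, at -0.85 (limma adjusted p = 0.00822 and 0.0287). The 2 called higher were Pold4, the small subunit of polymerase delta, and Rnaseh2a, which removes ribonucleotides from DNA. Pold4 rose from 11.5 ± 2.64 to 24.8 ± 5.01 FPKM, a log2 fold change of 1.06 (limma adjusted p = 0.0221) and of 0.81 after scaling (adjusted p = 0.0103). Rnaseh2a rose from 11.4 ± 2.23 to 21.4 ± 3.23 FPKM (log2 fold change 0.86, limma adjusted p = 0.0347).

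The E2F and RB list had 20 tested genes, with 0 called as deposited and 1 lower after scaling, Rbl1, which encodes the pocket protein p107 (scaled log2 fold change -0.77, limma adjusted p = 0.0314; 3.85% of annotated loci were called lower). E2f1, an activator in a locus joined with Necab3, had a scaled log2 fold change of -0.10 and Rb1, the retinoblastoma gene, one of 0.02. E2f4, a repressor E2F, measured 5.62 to 8.43 FPKM at P1 and 8.63 to 10.1 at P7, without overlap as deposited, but its adjusted p was 0.188 and the stages overlapped after scaling. Of 14 other nucleotide genes 0 were called on either scale.

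Of 16 genes that restrain or check S phase, the CDK inhibitors Cdkn1a and Cdkn1b were called higher as deposited, at log2 fold changes of 0.88 and 0.85 (limma adjusted p = 0.0455 and 0.0444), where 7.74% of annotated loci were. After scaling these were 0.66 and 0.59 and no longer called (adjusted p = 0.153 and 0.0936). Instead Chek1, the checkpoint kinase, and Dtl, which targets CDT1 for destruction, were called lower, at -1.26 and -0.92 (adjusted p = 0.0388 and 0.0225), where 3.85% of annotated loci were. In the mitotic list of 16 genes, Bub1b, a spindle checkpoint gene, was the only call, after scaling (-0.71, adjusted p = 0.0308, against 3.85% of annotated loci called lower). Mki67, a proliferation marker, and Cdk1, the mitotic kinase, had scaled log2 fold changes of -0.37 and -0.24 and were not called.

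The hearts differed in other respects. About 12800000 to 18700000 fragments stood behind the P1 libraries and 13700000 to 16300000 behind the P7 libraries, read from the steps of low FPKM values. The members then rested on a median of about 372 fragments per gene and heart. P1 replicate 3 had 28662 loci of at least 1 FPKM and the other hearts 20269 to 22292. A single locus took 35.7% of the FPKM of P7 replicate 4, and the top locus took 17.0% to 27.6% in the other hearts. All 8 cardiomyocyte markers were measured in every heart. Their scaled sum was 13686 to 16849 FPKM at P1 and 13692 to 16806 at P7. Of these 8 markers, 0 were called on either scale, and 2 had negative and 6 positive scaled fold changes. Summed endothelial markers measured 188 to 208 FPKM at P1 and 295 to 328 at P7 after scaling, fibroblast markers 840 to 1166 and 1186 to 1402, and leukocyte markers 18.7 to 20.6 and 32.8 to 37.9. Of the 8 endothelial markers, 4 were called higher and 1 lower after scaling, and 2 had negative fold changes. Of the 7 fibroblast markers, 5 were called higher and 0 lower, and 1 was negative. Over annotated loci 7.42% were called higher and 3.85% lower after scaling. Of the 7 leukocyte markers with a locus, Fcgr1, Cd79a and Cd3e stayed under 0.5 FPKM in every heart. Smooth muscle and pericyte markers summed to 339 to 528 FPKM at P1 and 245 to 302 at P7 after scaling. Acta2 was called lower and Pdgfrb called higher. Of these 6 markers, 4 had positive and 2 negative scaled fold changes (median 0.39), although the sum was lower at P7. Erythroid markers summed to 112 to 129 and 56.4 to 112, carried by Tfrc, and 3 of the 5 tested erythroid genes had positive scaled fold changes (median 0.56). As deposited, 4 of 8 endothelial, 4 of 7 fibroblast, 1 of 4 tested leukocyte, 1 of 5 tested erythroid and 1 of 6 smooth muscle and pericyte markers were called higher, where 7.74% of annotated loci were. The part of these cell types in the values of the replication genes was not tested.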

How the data were processed

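The samples were grouped by the stage in their labels, 4 P1 and 4 P7 hearts. The authors' provider aligned paired-end Illumina reads of ribosome-depleted ScriptSeq v2 libraries to GRCm38 with Ensembl 70 and deposited FPKM per locus (aligner and strand of counting not given in the sources used here). The authors' locus FPKM carry joined symbols where genes overlap, and reads of overlapping or antisense genes cannot be told apart. Symbols were split at commas, matched ignoring case, and of several loci the most abundant on average was taken.

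The members and the further lists were chosen with earlier results of these data known. Loci that reached 1 FPKM in any heart (43172 as deposited) were tested on log2(FPKM + 1) with limma 3.58.1 (R 4.3.3, lmFit and eBayes with trend, two-sided), Benjamini-Hochberg over all loci. Fold changes on this scale understate changes of low genes. Median-ratio scaling used annotated loci of at least 1 FPKM in every heart. GC content came from the longest GENCODE M21 transcript, known for 85.9% of annotated tested loci, and a lowess trend (span 0.3) was subtracted per heart; this correction was chosen after seeing the data. Depth was estimated by taking the most frequent low value of FPKM times transcript length, over genes with 1 transcript of over 600 bases, as 1 fragment, also chosen after seeing the data. Genes named were the called members, those whose call changed with scaling, the highest and the extreme members of each role, up to 4 called genes of each further list, and E2f1, E2f4, Rb1, Mki67, Top2a and Cdk1. Other members and markers were named beyond this rule, after their values were seen. Alternatives were a pseudocount of 0.1, 2 other filters, upper-quartile scaling, eBayes without trend, summing loci, the replicate number as a block, and each heart left out. The highest correlation between hearts was 0.986, and no pair was identical. Scripts (Python 3.11.15, pandas 2.3.3) were tested on simulated data.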

Additional observations from a re-analysis of the deposited data

Results flagged for a closer look

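Among 96 groups of 4 hearts (each member in each stage as deposited, and the summed and mean levels), 4 had a heart set apart from the others of its stage by more than Dixon's 95% critical value for 4 values, where chance gives about 4.8 of 96 (1 in 20). Cdc6 was low in P1 replicate 3, at 1.03 FPKM against 1.94 to 2.11 in the other P1 hearts (gap over range 0.842). Lig1 was high in P1 replicate 1, at 11.8 FPKM against 7.51 to 8.10 (0.864). Cdk2 was high in the same heart, at 23.5 FPKM against 18.2 to 18.5 (0.934). The scaled mean log2 level of the replication genes was also highest there, at 3.41 against 3.28 to 3.30 (0.837).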

How the results depend on the processing

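The count of members called lower at P7, 0 as deposited, became 5 with median-ratio scaling and 5 with upper-quartile scaling. It was 5 with the replicate block and median-ratio scaling. With GC correction and median-ratio scaling it was 1, where the adjusted p was GC-corrected and the fold cut-off used uncorrected means. It was 0 with the replicate block on the deposited values and under every other alternative on them. The count of members with all P7 hearts below all P1 hearts, 3 as deposited, became 11 with median-ratio and 13 with upper-quartile scaling, and 3 to 7 with a heart left out (7 without P7 replicate 3). The count above, 0, became 0 to 2 with a heart left out. No member was called higher under any alternative. Shares of annotated loci were counted only as deposited and after median-ratio scaling, and not under the other alternatives.

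After median-ratio scaling, the 5 calls became 8 with the filter of 1 FPKM in every heart (Mcm6, Cdc45 and Tyms added). They became 1 with GC correction, which reached the adjusted p and not the means used for the fold cut-off. They became 3 to 5 with a heart left out. With a pseudocount of 0.1 or the replicate block they were 5. The share of annotated loci called was not counted under these alternatives. The adjusted p of Orc2 was under 0.05 in 12 of 12 scaled alternatives, Orc6 and Pola1 in 11, and Prim1 and Rrm1 in 9. The labels name no pairing of hearts by replicate number. Deviations of hearts with the same number correlated between -0.18 and 0.16, and those of different numbers between -0.22 and 0.15. So few correlations cannot exclude a pairing. Depth is lowest for Orc1 and Fen1, at about 9.14 and 13.7 fragments in their lowest hearts. The cause of the changes with scaling was not tested.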
